A study of Mus musculus with 8 samples.

Results

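The genes described here are the Fc receptors of mouse peritoneal macrophages (pMacs) with their signalling chain and kinase, compared between wild-type (WT) and CD1d-deficient (CD1d-KO) mice. The 8 genes were chosen by name and not by their level, with earlier results of these data known. They are the Fc gamma receptor genes *Fcgr1*, *Fcgr2b*, *Fcgr3* and *Fcgr4*, the signalling chain *Fcer1g*, the kinase *Syk*, the neonatal Fc receptor *Fcgrt* and the Fc receptor-like gene *Fcrls*. They are 8 of the 48795 genes in the files, and 8 of 8 were among the 13909 genes with enough counts to be tested. Polyadenylated RNA of unstimulated pMacs from the peritoneal lavage was sequenced as 1 library per mouse. There were 4 mice of each genotype, numbered as replicates 1, 2, 3 and 5 in both. WT mice were C57BL/6 by the series record, the study names littermate controls for the sequencing, and mice of the study were 8 to 16 weeks old. CD1d presents lipids to natural killer T cells, and CD1d-KO mice lack the molecule in all cells and lack these T cells as well. The methods name a cross of CD1dflox mice with PGK-Cre and a germline deletion, B6.129S6-Del(3Cd1d2-Cd1d1)1Sbp/J, while the labels do not say which of these gave the libraries. The study describes the sequenced pMacs as purified. The methods state a selection with F4/80 beads for stimulation experiments, and how the sequenced cells were purified is not given in the sources used here.

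Fc receptors bind the constant part of antibodies and let macrophages take up, destroy or respond to particles that antibodies have coated. FcγRI (*Fcgr1*), FcγRIII (*Fcgr3*) and FcγRIV (*Fcgr4*) are the activating receptors for IgG in the mouse. They signal through the common γ chain (*Fcer1g*), whose immunoreceptor tyrosine-based activation motif (ITAM) recruits the kinase Syk once Src-family kinases have phosphorylated it. FcγRIIb (*Fcgr2b*) carries an inhibitory motif (ITIM) and recruits phosphatases, so that the balance of activating and inhibitory receptors sets a threshold for activation. FcRn (*Fcgrt*) pairs with β2-microglobulin and returns IgG from endosomes to the cell surface, and *Fcrls* encodes Fc receptor-like S, a scavenger receptor of this family.

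The genes lie in a few places of the mouse genome GRCm38. *Fcgr2b* (ENSMUSG00000026656, chromosome 1 from 170958617 to 170976547), *Fcgr4* (ENSMUSG00000059089, 171018920 to 171029761), *Fcgr3* (from 171051174 to 171064935) and *Fcer1g* (from 171229572 to 171234365) are neighbours within 275.7 kb. *Fcgr1* (ENSMUSG00000015947) lies on chromosome 3 from 96282909 to 96293969, which is 9.28 Mb from the deleted gene *Cd1d1*. *Fcrls* lies on the same chromosome from 87250758 to 87263738, 0.251 Mb from *Cd1d1*. *Fcgrt* lies on chromosome 7 from 45092990 to 45103851 and *Syk* on chromosome 13 from 52583173 to 52648792.

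The promoters of *Fcgr1* and *Fcgr4* are shown because these receptors varied most among the activating ones, and each holds an interferon-type motif. The sequences are those of RefSeq on GRCm38.p6, from 250 bases before to 50 bases after the start of the gene, read 5′ to 3′ on the strand of the gene. In *Fcgr1* the capitals mark a match to the interferon gamma activated site TTCNNNGAA, and in *Fcgr4* a match to the interferon-stimulated response element (ISRE, GAAA, any 2 bases and GAAA again), which binds IRF factors.
Fcgr1, chr3:96293920-96294219, minus strand: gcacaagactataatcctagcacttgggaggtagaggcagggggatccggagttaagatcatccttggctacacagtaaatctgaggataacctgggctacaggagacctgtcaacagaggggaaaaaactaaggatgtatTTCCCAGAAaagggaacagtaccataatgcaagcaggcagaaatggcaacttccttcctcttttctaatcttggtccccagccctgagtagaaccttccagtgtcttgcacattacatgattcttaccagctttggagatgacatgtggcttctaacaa
Fcgr4, chr1:171018676-171018975, plus strand: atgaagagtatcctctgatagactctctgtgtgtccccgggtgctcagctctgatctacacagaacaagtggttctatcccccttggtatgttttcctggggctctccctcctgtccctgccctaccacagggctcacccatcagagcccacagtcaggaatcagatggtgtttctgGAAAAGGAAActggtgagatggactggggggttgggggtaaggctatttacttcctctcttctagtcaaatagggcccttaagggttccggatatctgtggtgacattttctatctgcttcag
The match in *Fcgr1* began 109 bases and that in *Fcgr4* 73 bases before the start. Both strands were searched, and the 2 motifs do not overlap in these promoters. The *Fcgr1* promoter held no match to the response element and the *Fcgr4* promoter none to the activated site. No promoter of the other 6 genes in the table held a match to either. Of all 32851 promoters of this length, 8.3% held the activated site and 3.44% the response element. The letters GAGGAA, the core bound by the myeloid factor PU.1, were found in the promoters of *Fcgr1*, *Fcgr3*, *Fcgr4* and *Fcrls*, in 1 of the 2 promoters of *Syk*, and in 28.28% of all promoters.

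*Fcgr2b* and *Fcgr3* share part of their coding sequence, which bears on how reads were divided between them. Over 509 aligned bases of the coding sequence that encodes the extracellular part, 491 were identical (96.5%). The longest identical stretch spans 129 bases, positions 278 to 406 of the *Fcgr2b* and 263 to 391 of the *Fcgr3* coding sequence, counted from the first base of the start codon.
Stretch shared by Fcgr2b and Fcgr3: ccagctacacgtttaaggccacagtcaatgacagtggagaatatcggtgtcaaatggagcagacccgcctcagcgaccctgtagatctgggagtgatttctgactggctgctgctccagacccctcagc
Of the distinct 75-base windows of *Fcgr3* transcripts, the length of the reads, 94 of 1733 were also found in another gene (5.42%), and the other gene was *Fcgr2b*. For *Fcgr2b* 313 of 5768 windows were shared (5.43%), most often with *Cplx2*. The 6 other genes shared 0 windows. RSEM divides a read that fits several genes among them, and the expected counts of *Fcgr2b* and *Fcgr3* had fractions in 8 of 8 libraries, while those of the 6 others were whole numbers. The levels of *Fcgr2b* and *Fcgr3* are uncertain for this reason, and the share of windows does not measure by how much.

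The deleted gene *Cd1d1* was read first as a check of the labels. Its normalized counts, which are counts scaled by library size, were 68.2, 176, 96.3 and 141 in WT replicates 1, 2, 3 and 5. They were 1.15, 0 and 1.10 in CD1d-KO replicates 2, 3 and 5. The library labelled CD1d-KO replicate 1 had 60.6. That library therefore held *Cd1d1* close to the lowest WT library, and the fold change of each of the 8 genes is also given without replicate 1. *Cd1d1* had an adjusted p of 0.245 over all 4 pairs and of 0.000682 without replicate 1 (edgeR, Benjamini-Hochberg adjustment), with a range from 0.000604 to 1.0 over 19 alternatives. Libraries held 13698864 to 19059432 expected counts, and the 2 libraries of replicate 1 were the deepest. Macrophage markers were high in all libraries, with a summed level of 8 genes of 23420 to 27550 CPM (counts relative to the library total) in WT and 20860 to 27400 in CD1d-KO. The 10 markers of large peritoneal macrophages summed to 7179 to 8187 CPM in WT and 8206 to 8505 in CD1d-KO. *Prg4* had the highest counts of this list (means of 80550 and 87720, log2 fold change 0.12), and *Gata6* had a log2 fold change of -0.09. Of the 10, 9 had positive log2 fold changes and 4 were higher at an unadjusted p under 0.05 in edgeR, beside 7.01% of all tested genes. Markers of other cells were lower: the 12 B cell markers summed to 208 to 611 CPM in WT and 129 to 1010 in CD1d-KO, the 11 of dendritic cells and small peritoneal macrophages to 963 to 2037 and 622 to 2579, and the 8 of neutrophils to 183 to 286 and 290 to 361. The neutrophil sum was carried by *Csf3r* (mean normalized counts of 3838 in WT and 4894 in CD1d-KO), while *Ly6g* was at 0 and 4 others had means under 4. *S100a8*, which lies 3.67 Mb from *Cd1d1*, had means of 47.8 and 84.9 and was higher in CD1d-KO in 4 of 4 pairs. Its log2 fold change was 0.83 (adjusted p = 0.0991 in edgeR after Benjamini-Hochberg adjustment), and that of *Mmp8* was -0.88. The 8 mast cell markers summed to 26.9 to 114 CPM in WT and 65.9 to 194 in CD1d-KO. This sum was carried by *Hdc* (means of 1169 and 1946), the other 7 had means under 35, and 5 of the 6 tested had negative log2 fold changes (median -0.52). The 6 markers of eosinophils summed to 6.09 to 6.58 and 4.98 to 13.4, and the 10 of T and NK cells to 8.01 to 14.9 and 4.21 to 23.9, with *Ncr1* at 0. In bulk samples fewer cells of a type and less RNA per cell cannot be told apart.

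*Fcgr3* was the most abundant of the 8 genes. TPM, the relative abundance of transcripts corrected for their length, by which genes can be compared, had a median over the 8 libraries of 911 for *Fcgr3*, 624 for *Fcer1g*, 335 for *Fcgr2b* and 109 for *Syk*. These 4 genes kept this order in 8 of 8 libraries, and their ranges did not overlap. Below them came *Fcgr1* with a median of 92.0, *Fcgrt* with 38.5, *Fcgr4* with 17.0 and *Fcrls* with 6.35. From *Syk* downward the ranges of neighbouring genes overlapped. *Syk* was above *Fcgr1* in 6 of 8 libraries, *Fcgr1* above *Fcgrt* in 5 and *Fcgrt* above *Fcgr4* in 7.

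**Figure D1:**
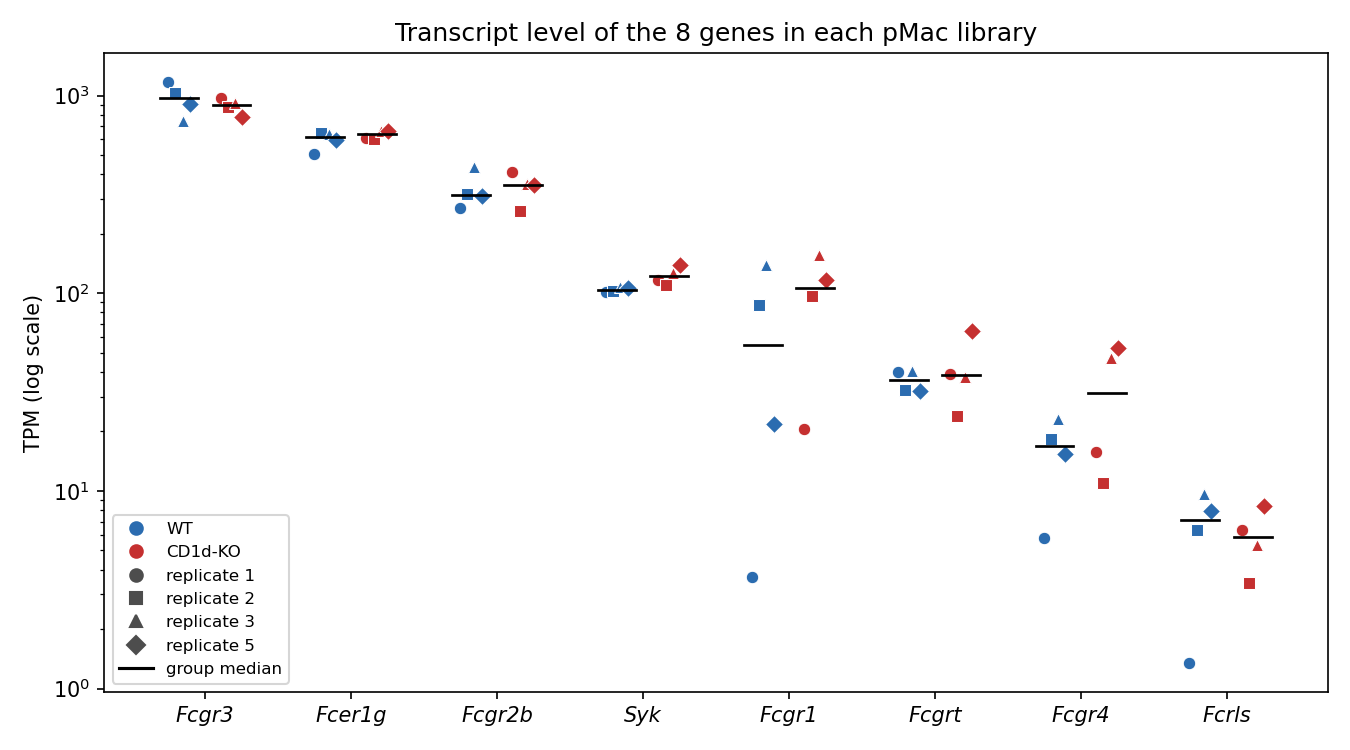
TPM (log axis) of the 8 genes in each library, with WT in blue, CD1d-KO in red, marker shapes for replicate numbers and a black line for the median of each group of 4. *Fcgr3*, *Fcer1g*, *Fcgr2b* and *Syk* occupy narrow bands in this order, whereas *Fcgr1* runs from 3.65 to 155 TPM.

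The genes differed in how far they varied between mice. *Fcgr1* had a 42.6-fold range of TPM over the 8 libraries, 38.3-fold within WT and 7.56-fold within CD1d-KO. *Fcgr4* had a 9.16-fold, *Fcrls* a 7.13-fold and *Fcgrt* a 2.69-fold range. The ranges of the *Fcgr2b*, *Fcgr3*, *Fcer1g* and *Syk* levels were between 1.31-fold and 1.67-fold. For *Fcgr1*, mice of the same genotype thus differed more than the means of the genotypes did.

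None of the 8 genes passed the thresholds of the study, a fold change above 1.5 with an adjusted p under 0.01, when edgeR's quasi-likelihood test was run with genotype and replicate number in the model. Of all tested genes 5 did (0.0359%), all higher in CD1d-KO. At an adjusted p under 0.05 with no fold threshold it was 0 of the 8 against 0.374% of all. DESeq2 called 0 of the 8 against 1.02% of the 10398 genes to which it gave an adjusted p, 71 higher and 35 lower. The study itself used DESeq2 and reported genes in both directions, more of them lower than higher in CD1d-KO. At an unadjusted p under 0.05 in the edgeR fit, 3 of the 8 were higher in CD1d-KO (*Fcgr1*, *Fcgr4* and *Syk*), against 7.01% of all tested genes, and 0 were lower, against 5.0%. Without the replicate number in the model, 0 of the 8 had an unadjusted p under 0.05. Leaving out replicate 1 left 2 such genes (*Syk*, higher, and *Fcrls*, lower). The median log2 fold change of the 8, CD1d-KO against WT, was 0.10, beside 0.0044 over all tested genes. Within pairs of the same replicate number, *Fcgr1* and *Syk* were higher in CD1d-KO in 4 of 4, which also held for 10.4% of all tested genes. None of the 8 was lower in 4 of 4 pairs, which held for 9.95% of all.

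*Fcgr1* encodes the high-affinity activating receptor, which can bind IgG that is not in complexes. Its normalized counts were 77.9, 1929, 3003 and 526 in WT replicates 1, 2, 3 and 5, and 349, 2167, 3335 and 2126 in CD1d-KO replicates 1, 2, 3 and 5. The WT values spread from the lowest of all libraries to the second highest, and the groups overlapped. The means were 1384 ± 1337 in WT (SD, n = 4 mice) and 1994 ± 1232 in CD1d-KO (SD, n = 4). The log2 fold change was 1.02 (SE, the standard error of the fit, 0.36, unadjusted p = 0.0227, adjusted p = 0.313 in edgeR after Benjamini-Hochberg adjustment). The log2 ratios within pairs 1, 2, 3 and 5 were 2.16, 0.17, 0.15 and 2.02. The difference thus lay mainly in pairs 1 and 5, in which the WT library had little *Fcgr1*. Without replicate 1 the log2 fold change was 0.74 (adjusted p = 0.589 in edgeR after Benjamini-Hochberg adjustment), without replicate 5 it was 0.68, and without a block for replicate number it was 0.53. Over 20 alternatives the adjusted p ran from 0.00337, with no filter on counts, to 1.0. Its log2 fold change ran from 0.13 to 1.38 and was 0.13 without WT replicate 1, 0.16 without CD1d-KO replicate 3 and 0.26 without WT replicate 5, all 3 without the block.

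*Fcgr4* encodes an activating receptor for IgG2a and IgG2b. It had 58.4, 231, 285 and 180 normalized counts in WT replicates 1, 2, 3 and 5, and 164, 136, 617 and 577 in CD1d-KO replicates 1, 2, 3 and 5. CD1d-KO replicates 3 and 5 were above all WT libraries, and the other two lay within the WT range. The means were 189 ± 96.8 in WT and 373 ± 259 in CD1d-KO (SD, n = 4 each), and the log2 fold change was 0.91 (SE 0.36, unadjusted p = 0.0342, adjusted p = 0.370 in edgeR after Benjamini-Hochberg adjustment). *Fcgr4* was higher in CD1d-KO in pairs 1, 3 and 5 by log2 ratios of 1.49, 1.11 and 1.68, and in pair 2 the log2 ratio was -0.76. Leaving out replicate 2 gave 1.42 and an adjusted p of 0.0103, leaving out replicate 1 gave 0.76 and 0.645, and leaving out replicate 5 gave 0.63 and 0.742 (edgeR, Benjamini-Hochberg adjustment). Over 20 alternatives the adjusted p ran from 0.0103 to 1.0. The median log2 ratios of B cell markers in pairs 1, 2, 3 and 5 were 0.41, -0.88, 0.011 and 0.68, and those of the markers of dendritic cells and small peritoneal macrophages 0.42, -0.46, -0.010 and 0.35. Pair 2 was lowest in both lists as it was for *Fcgr4*, while in pair 3 the lists had 0.011 and -0.010 and *Fcgr4* 1.11. Pair 2 was also lowest for *Fcgr2b*, *Fcer1g*, *Fcgrt*, *Syk* and *Fcrls* and for the eosinophil and the T and NK cell markers. The other marker lists were lowest in pair 5, as was *Fcgr3*, and *Fcgr1* was lowest in pair 3. The part of these cells in the result was not tested.

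*Fcgr3*, the activating receptor of lower affinity that binds immune complexes, had 12619, 13794, 9790 and 11370 normalized counts in WT replicates 1, 2, 3 and 5. In CD1d-KO replicates 1, 2, 3 and 5 it had 10735, 11523, 12692 and 9034. The groups overlapped, and replicate 3 was the lowest WT and the highest CD1d-KO library. The log2 fold change was -0.11 (SE 0.12, adjusted p = 0.785 in edgeR after Benjamini-Hochberg adjustment). The log2 ratios were -0.23, -0.26 and -0.33 in pairs 1, 2 and 5 and 0.37 in pair 3, and the log2 fold change was -0.07 without replicate 1 and -0.27 without replicate 3 (adjusted p = 0.413 in edgeR after Benjamini-Hochberg adjustment).

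*Fcgr2b*, the inhibitory receptor, had 3774, 5431, 7221 and 5006 normalized counts in WT replicates 1, 2, 3 and 5, and 5841, 4370, 6342 and 5172 in CD1d-KO replicates 1, 2, 3 and 5. The highest and the lowest library were both WT. The means were 5358 ± 1427 in WT and 5431 ± 855 in CD1d-KO (SD, n = 4 each), with a log2 fold change of 0.04 (SE 0.15, adjusted p = 0.945 in edgeR after Benjamini-Hochberg adjustment). The log2 ratios in pairs 1, 2, 3 and 5 were 0.63, -0.31, -0.19 and 0.05, and without replicate 1 the log2 fold change was -0.15. B cells, whose marker ratios are given above, also express *Fcgr2b* as their Fc receptor, and their part was not tested.

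The ratio of activating to inhibitory receptor transcripts was computed from TPM, as the sum of *Fcgr1*, *Fcgr3* and *Fcgr4* over *Fcgr2b*. It was 4.37, 3.55, 2.10 and 3.06 in WT replicates 1, 2, 3 and 5, and 2.47, 3.76, 3.14 and 2.70 in CD1d-KO replicates 1, 2, 3 and 5. All CD1d-KO values lay within the WT range. The mean log2 difference, CD1d-KO minus WT, was -0.085 with an SD over the 4 pairs of 0.58, and it was 0.16 without replicate 1. *Fcgr3* made up 81.8% to 99.2% of the activating TPM and *Fcgr1* 0.31% to 15.3%, so the ratio mostly follows *Fcgr3* and *Fcgr2b*. In WT replicate 1 *Fcgr3* was nearly the sole activating transcript at 99.2%, and in CD1d-KO replicate 5 *Fcgr1* made up 12.3% and *Fcgr4* 5.56%.

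**Figure D2:**
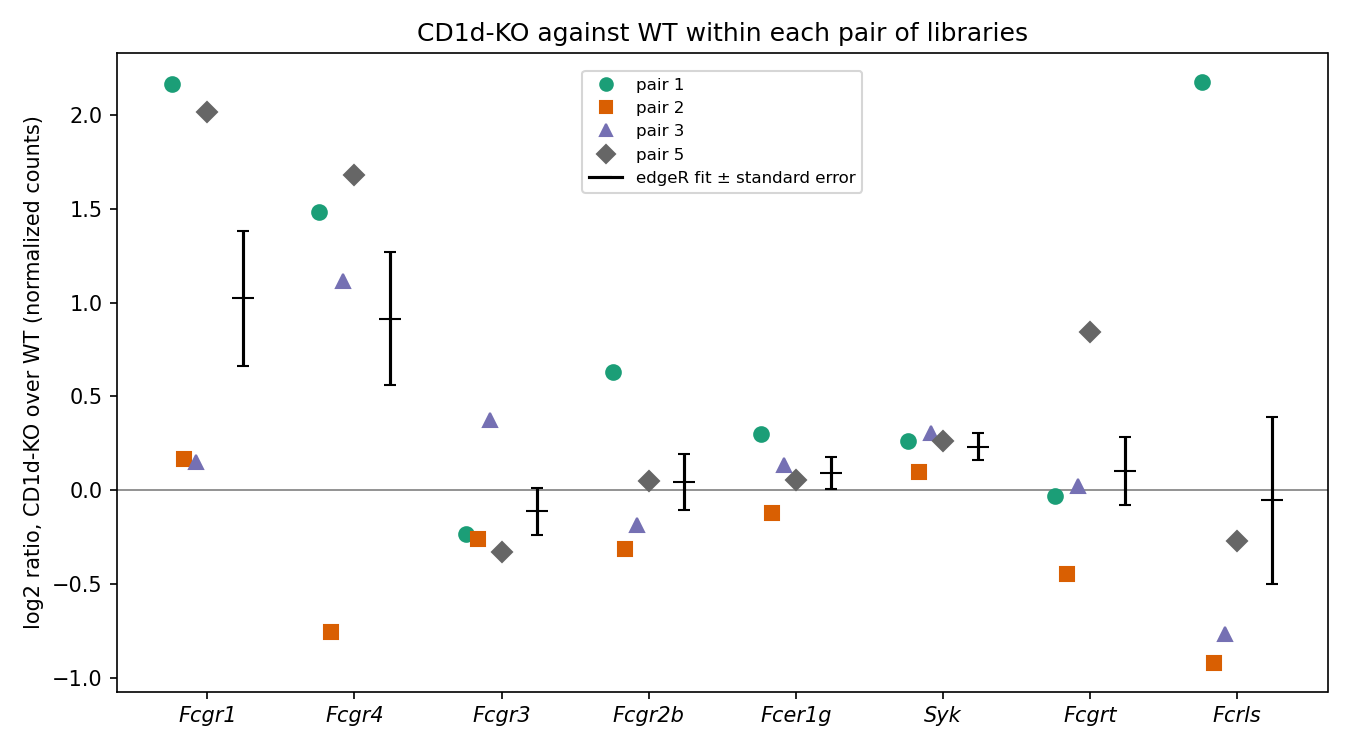
Log2 ratio of normalized counts, CD1d-KO over WT, of the 8 genes in each pair of libraries with the same replicate number (symbols), and the log2 fold change fitted by edgeR with its standard error (black). *Fcgr1* and *Syk* are above 0 in 4 of 4 pairs, *Fcgr4* in 3, and *Fcrls* in pair 1 alone.

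*Fcer1g*, the γ chain that the activating receptors need to reach the cell surface, had 2591, 4116, 3969 and 3510 normalized counts in WT replicates 1, 2, 3 and 5, and 3184, 3784, 4354 and 3640 in CD1d-KO replicates 1, 2, 3 and 5. Both genotypes had their lowest value in replicate 1, and the groups overlapped. The log2 fold change was 0.09 (SE 0.08, adjusted p = 0.743 in edgeR after Benjamini-Hochberg adjustment), with log2 ratios in the 4 pairs between -0.12 and 0.30, and it was 0.02 without replicate 1. The summed TPM of the activating receptors was 1.42 to 2.33 times that of *Fcer1g* in WT and 1.43 to 1.69 times in CD1d-KO.

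*Syk*, the kinase that binds the phosphorylated γ chain, had the smallest p of the 8 genes. It had 4047, 5182, 5353 and 5090 normalized counts in WT replicates 1, 2, 3 and 5, and 4848, 5534, 6601 and 6104 in CD1d-KO replicates 1, 2, 3 and 5. CD1d-KO replicates 2, 3 and 5 were above all WT libraries, and the library labelled CD1d-KO replicate 1 was above WT replicate 1 alone. In TPM the groups did not overlap, with 101, 102, 107 and 107 in WT and 117, 111, 126 and 140 in CD1d-KO replicates 1, 2, 3 and 5. *Syk* was the 1 of the 8 genes for which this held, and it held for 1.12% of all tested genes. The log2 fold change was 0.23 (SE 0.07, unadjusted p = 0.0133, adjusted p = 0.252 in edgeR after Benjamini-Hochberg adjustment), which is below the fold threshold. It was 0.22 without replicate 1, and over 20 alternatives it ran from 0.15 to 0.31 and the adjusted p from 0.0963 to 1.0.

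*Fcgrt*, the receptor that recycles IgG, had 559, 570, 679 and 519 normalized counts in WT replicates 1, 2, 3 and 5, and 546, 418, 689 and 931 in CD1d-KO replicates 1, 2, 3 and 5. CD1d-KO held both the lowest and the highest library. The log2 fold change was 0.10 (SE 0.18, adjusted p = 0.888 in edgeR after Benjamini-Hochberg adjustment) which was 0.15 without replicate 1 and turned to -0.15 without replicate 5.

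*Fcrls* was the least abundant gene, with 34 to 184 expected counts per library, so that its values carry more counting error than the others. It had 25.5, 150, 222 and 175 normalized counts in WT replicates 1, 2, 3 and 5, and 115, 79.1, 130 and 145 in CD1d-KO replicates 1, 2, 3 and 5. WT replicate 1 was below all other libraries, whereas WT replicates 2, 3 and 5 were above all CD1d-KO libraries. The log2 ratio was 2.18 in pair 1 and -0.92, -0.77 and -0.27 in pairs 2, 3 and 5. Over all pairs the log2 fold change was -0.06 (SE 0.45, adjusted p = 0.976 in edgeR after Benjamini-Hochberg adjustment). Without replicate 1 it was -0.64 (unadjusted p = 0.00646, adjusted p = 0.324 in edgeR after Benjamini-Hochberg adjustment), and the adjusted p ran from 0.324 to 1.0 over 20 alternatives.

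*Fcgr1* and *Fcrls* lie near the deleted gene. Of the 227 tested genes within 10 Mb of *Cd1d1*, 49 had an unadjusted p under 0.05 (21.6%), 28 higher and 21 lower in CD1d-KO, beside 12.0% of all tested genes. The difference between these shares was not tested, and neighbouring genes are not independent. Without replicate 1 this count was 46, in a model without replicate number it was 26, and within 5 Mb it was 34 of 121. Sequence around the deletion that came with the targeted allele cannot be told apart from the deletion itself. The tested genes directly beside *Fcgr1*, *Hist2h2bb* and *Terc*, had log2 fold changes of 0.11 and 0.0030 (unadjusted p of 0.704 and 0.987 in the edgeR fit). Beside *Fcrls*, *Cd5l*, which encodes a secreted scavenger protein of macrophages, had a log2 fold change of -0.46 (SE 0.18, adjusted p = 0.369 in edgeR after Benjamini-Hochberg adjustment, and 0.171 without replicate 1), and the pseudogene *Gm10705* had 0.43. On chromosome 1, 16 other protein-coding genes were tested between the 4 Fc receptor genes or within 200 kb of them. Of these 1 was higher at an unadjusted p under 0.05, the adhesion molecule gene *Nectin4* (log2 fold change 0.87, SE 0.20, adjusted p = 0.149 in edgeR after Benjamini-Hochberg adjustment), 0 were lower, and their median was 0.0067.

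Interferons are known inducers of *Fcgr1* and *Fcgr4*, and a list of 22 interferon-stimulated genes was read beside them. Their summed level was 1158, 7277, 13710 and 4970 CPM in WT replicates 1, 2, 3 and 5, and 3441, 8270, 15660 and 11240 in CD1d-KO replicates 1, 2, 3 and 5. *Fcgr1* ordered the 8 libraries in the same way apart from CD1d-KO replicates 2 and 5, which changed places, with WT replicate 1 lowest and CD1d-KO replicate 3 highest in both. The median log2 ratio of the list in pairs 1, 2, 3 and 5 was 1.64, 0.17, 0.21 and 0.88, beside 2.16, 0.17, 0.15 and 2.02 for *Fcgr1* and 1.49, -0.76, 1.11 and 1.68 for *Fcgr4*. Of the 22 genes 21 were higher in CD1d-KO at an unadjusted p under 0.05 in edgeR, beside 7.01% of all tested genes. None was lower at this threshold and none was called, and the median log2 fold change was 0.72. The list was chosen with earlier results of these data known. Its genes vary together over the libraries, so they are not independent counts beside the share of all genes. The count of higher genes was 14 without replicate 1, 7 without replicate 5 and 0 without the block for replicate number, where the median was 0.44. Without the block, leaving out WT replicate 1 lowered the median to 0.11 and leaving out CD1d-KO replicate 3 to 0.17, with 19 of 22 log2 fold changes positive in each of these 2 fits. *Cxcl10*, which encodes a chemokine, had a log2 fold change of 1.66 (SE 0.43), *Irf7*, a transcription factor of the interferon response, had 0.90 (SE 0.22), and the antiviral gene *Rsad2* had 1.16 (SE 0.34). Without CD1d-KO replicate 3, and without the block, *Rsad2* turned to -0.27 and *Cxcl10* had 0.058. Their adjusted p lay between 0.156 and 0.235 (edgeR, Benjamini-Hochberg adjustment).

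**Figure D3:**
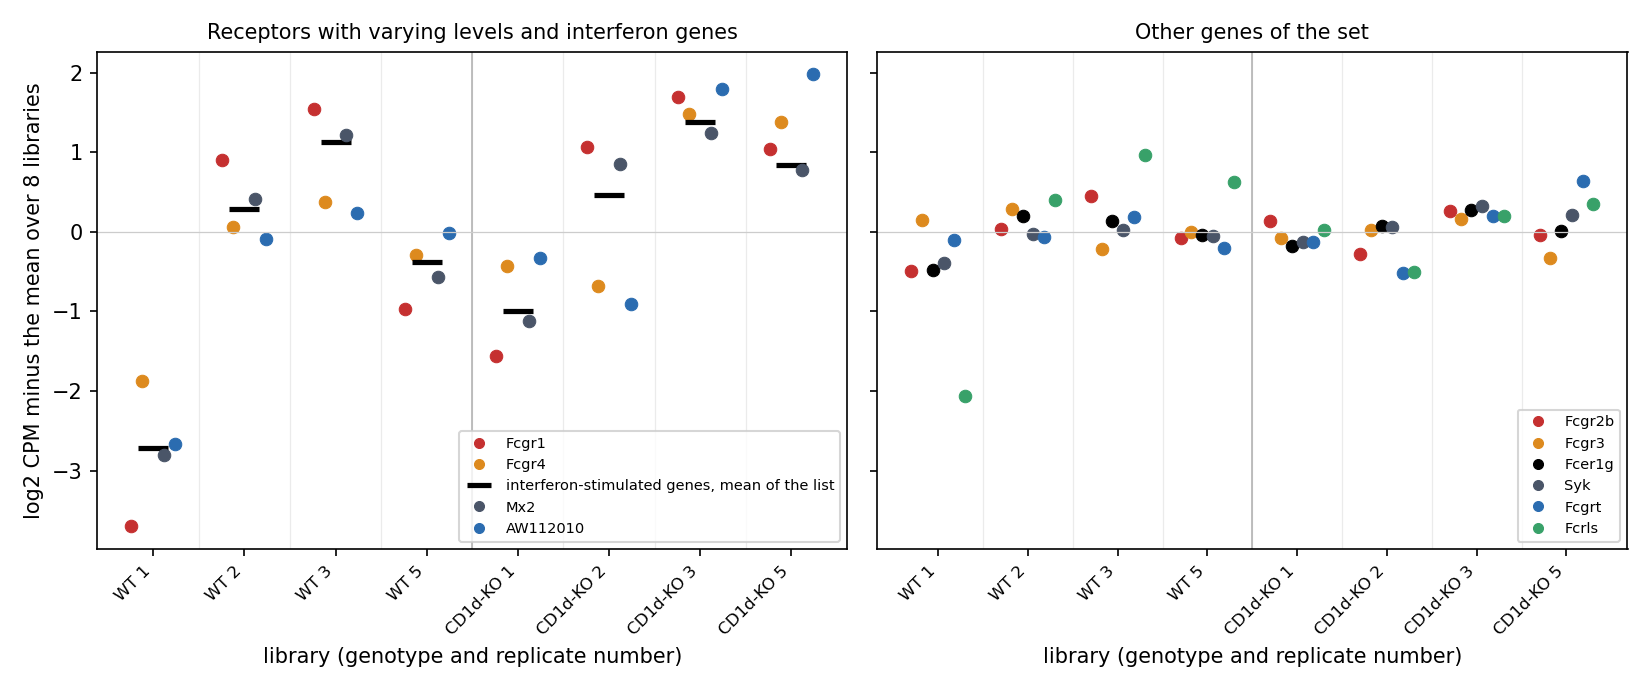
Log2 CPM minus the mean over the 8 libraries, for *Fcgr1*, *Fcgr4*, *Mx2*, *AW112010* and the mean of 22 interferon-stimulated genes (left, black bars for the list) and for the other 6 genes (right), with libraries on the x axis. WT replicate 1 is lowest for all items on the left, and the genes on the right stay within 1 unit of 0 except *Fcrls*, at -2.06 in WT replicate 1.

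The genes whose profiles were most like each receptor were found among 9922 genes by Pearson's r of log2 CPM over the 8 libraries, which share replicate numbers and differ in depth, so the values are descriptions. *Fcgr1* was most like *Mx2* and *Mitd1* (r = 0.996 for each). *Mx2* is an interferon-induced gene of a GTPase family that is annotated as a polymorphic pseudogene, and *Mitd1* acts at the end of cell division. *Fcgr4* was most like *Asah2*, the neutral ceramidase, and the long RNA *AW112010* (r = 0.988 for each). *Fcer1g* was most like the splicing factor gene *Snw1* (r = 0.988) and *Ppp6r1* (r = 0.984), a subunit of a phosphatase. The profiles nearest to *Fcgr2b* were those of the endosomal SNARE gene *Stx7* (r = 0.965) and *Arhgef5* (r = 0.959). Those nearest to *Fcrls* were *Pop4* (r = 0.961), a subunit of RNase P, and *Irf2* (r = 0.939), an interferon regulatory factor, and those nearest to *Fcgr3* were *Fam32a* (r = 0.949) and *Mzt1* (r = 0.939), which acts at microtubule nucleation. Among the 8 genes themselves, *Fcgr1* and *Fcer1g* had an r of 0.952 and *Fcgr4* and *Syk* of 0.92. WT replicate 1 was the lowest library for each of these genes, and with 8 libraries a single low one weighs heavily on r. The r of *Fcgr3* with the 7 others was between -0.517 and 0.019, so the most abundant receptor was the one whose profile stood apart.

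Other Fc receptors and receptor partners gave 9 tested genes, of which 2 were higher in CD1d-KO at an unadjusted p under 0.05 and 0 lower, with a median log2 fold change of 0.08. For this and the following lists, the shares of all tested genes at this threshold in edgeR were 7.01% higher and 5.0% lower. The lists were chosen with earlier results of these data known. *Fcrl1*, an Fc receptor-like gene of B cells that lies 0.377 Mb from *Cd1d1*, had 47.2, 21.5, 22.9 and 42.1 normalized counts in WT replicates 1, 2, 3 and 5, and 104, 44.7, 64.5 and 110 in CD1d-KO replicates 1, 2, 3 and 5. It was higher in CD1d-KO in 4 of 4 pairs, while the groups overlapped. Its log2 fold change was 1.26 (SE 0.18, adjusted p = 0.0454 in edgeR after Benjamini-Hochberg adjustment). The adjusted p was 0.00331 in DESeq2, 0.144 without replicate 1 and from 0.000568 to 1.0 over 20 alternatives. *Trim21*, the cytosolic antibody receptor, had a log2 fold change of 0.45 (SE 0.17), and *B2m*, the partner chain of FcRn, 0.20 (SE 0.10). *Fcer1a* and *Ms4a2*, which complete the IgE receptor with *Fcer1g*, had a mean under 3 counts. Without replicate 1 this list had 1 gene higher and 1 lower among 8 tested, and without the block 1 higher and 0 lower.

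The proximal kinases of the pathway were mixed. Of 8 tested Src-family and Tec-family kinases 1 was higher and 2 were lower at an unadjusted p under 0.05, with a median log2 fold change of 0.03. *Fgr*, a Src-family kinase of myeloid cells, had a log2 fold change of -0.39 (SE 0.10, adjusted p = 0.173 in edgeR after Benjamini-Hochberg adjustment) and *Tec* of -0.27 (SE 0.07), each lower in 4 of 4 pairs. Of 17 tested adaptors and effectors 1 was higher and 1 lower, with a median of 0.04. The adaptor gene *Blnk* had 0.56 (SE 0.11, adjusted p = 0.105 in edgeR after Benjamini-Hochberg adjustment), the exchange factor gene *Vav3* had -0.59 (SE 0.13, adjusted p = 0.140 in edgeR after Benjamini-Hochberg adjustment), and *Pik3ap1*, the most abundant, which links receptors to phosphoinositide 3-kinase, had 0.15 (SE 0.07). Without replicate 1 the counts of both lists were the same, and without the block for replicate number they were 0 in both directions. *Pik3ap1* was positive in 18 of 20 alternatives.

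Inhibitory effectors included the gene of the pathway with the smallest p. Of 12 tested genes 1 was higher and 3 were lower at an unadjusted p under 0.05, with a median log2 fold change of -0.05. *Dok2*, an adaptor that recruits RasGAP and restrains signalling, had 641, 584, 220 and 701 normalized counts in WT replicates 1, 2, 3 and 5, and 387, 395, 134 and 425 in CD1d-KO replicates 1, 2, 3 and 5. The CD1d-KO library was lower in 4 of 4 pairs, while replicate 3 was low in both genotypes and the groups overlapped. Its log2 fold change was -0.68 (SE 0.08, adjusted p = 0.0198 in edgeR after Benjamini-Hochberg adjustment). The adjusted p was 0.0835 without replicate 1 and up to 0.163 without replicate 5. Over 20 alternatives it ran from 2.31e-05, in DESeq2, to 1.0. *Sla*, an adaptor that lowers receptor signalling, had 0.49 (SE 0.10, adjusted p = 0.129 in edgeR after Benjamini-Hochberg adjustment), and *Ptpn6*, the phosphatase SHP-1 and the most abundant of the list, had -0.09 (SE 0.11). Without replicate 1 it was again 1 higher and 3 lower, and without the block it was 1 higher and 0 lower. *Ptpn6* kept its sign in 17 of 20 alternatives.

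Other receptors of macrophages use the same motifs. Of 9 tested receptors and adaptors that signal through ITAM-type motifs 0 were higher and 4 were lower at an unadjusted p under 0.05, with a median log2 fold change of -0.17. *Clec7a*, the β-glucan receptor Dectin-1, had 15440, 13120, 14860 and 16460 normalized counts in WT replicates 1, 2, 3 and 5, and 13830, 9332, 8896 and 10490 in CD1d-KO replicates 1, 2, 3 and 5. CD1d-KO replicates 2, 3 and 5 were below all WT libraries, and the library labelled CD1d-KO replicate 1 lay among the WT values. Its log2 fold change was -0.51 (SE 0.11, adjusted p = 0.127, and 0.0876 without replicate 1, in edgeR after Benjamini-Hochberg adjustment). Over 20 alternatives the adjusted p ran from 0.000631, in DESeq2, to 1.0. *Cd300lb* had -0.55 (SE 0.11) and *Clec4d*, the most abundant, -0.17 (SE 0.08). Without replicate 1 the list again had 0 higher and 4 lower genes, without the block 0 and 3, and in fits that left out a single library 1 to 3 were lower. Of 11 tested ITIM receptors 2 were higher and 0 lower, with a median of 0.03. Among them *Pirb*, which binds MHC class I, had 0.33 (SE 0.09), *Siglece*, a receptor for sialic acids, had 0.34 (SE 0.14), and *Sirpa*, the receptor for CD47 and the most abundant, had 0.09 (SE 0.08). Without replicate 1 this list had 1 higher and 0 lower, as it did without the block.

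Genes of actin assembly and engulfment, the step that follows receptor signalling in phagocytosis, centred near 0. Of 23 tested genes 3 were higher and 1 was lower at an unadjusted p under 0.05, and the median log2 fold change was -0.01. *Vasp*, which promotes actin filament growth, had 0.26 (SE 0.08, adjusted p = 0.258 in edgeR after Benjamini-Hochberg adjustment), *Limk1*, the kinase that inactivates cofilin, had -0.39 (SE 0.09, adjusted p = 0.140 in edgeR after Benjamini-Hochberg adjustment), and *Cfl1*, which encodes cofilin, had -0.09 (SE 0.07). Without replicate 1 it was 1 higher and 1 lower, and without the block 0 in both directions.

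**Figure D4:**
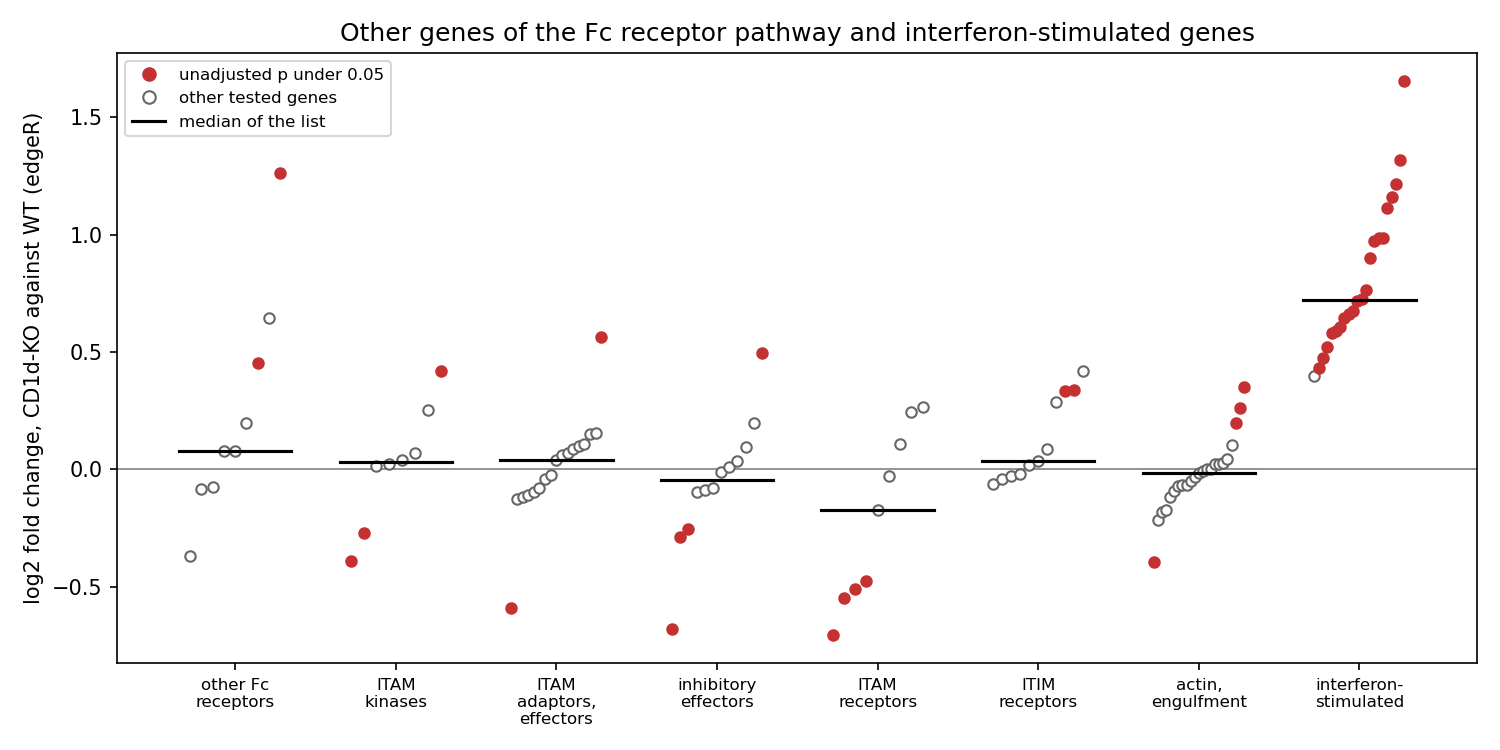
Log2 fold change, CD1d-KO against WT, of each tested gene in 7 lists of the Fc receptor pathway and in the interferon-stimulated genes, with genes of unadjusted p under 0.05 filled and a black line at the median. The pathway lists have medians between -0.17 and 0.08, and the interferon-stimulated genes have a median of 0.72.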

How the data were processed

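Polyadenylated RNA of pMacs was sequenced as 75-base single-end reads. The authors trimmed reads with Cutadapt, aligned them with STAR 2.5.2a to GRCm38 and quantified Ensembl genes with RSEM 1.3.0, and whether strand was used is not stated. The deposited expected counts are not normalized, and the deposited TPM are RSEM's length-corrected relative abundances. From these, expected counts were rounded, filtered with filterByExpr, normalized by TMM and tested with the quasi-likelihood test of edgeR 4.0.16 in R 4.3.3 with genotype and replicate number as terms, as the study's methods did, with Benjamini-Hochberg adjustment over all tested genes. Normalized counts are counts over TMM-scaled library sizes times their mean. Log2 CPM used a prior count of 2. DESeq2 1.42.0, limma 3.58.1 on log2(TPM + 1), other scalings and filters, no replicate block and left-out libraries were alternatives. Same-numbered libraries deviated together (r of 0.408, 0.337, 0.459 and 0.168 for replicates 1, 2, 3 and 5), so the numbers were taken to pair the libraries, although for replicate 5 the highest r with another number was 0.218. No 2 libraries were alike (chi-square per degree of freedom at least 14.6 over 28 pairs). On simulated counts for this comparison, with 13543 genes tested, edgeR called 58 of 100 genes changed by a log2 of 1 and 82 of 100 changed by a log2 of 2, with 6 false calls. These counts were drawn independently with the same change in each pair. They therefore do not give the share found among genes whose change differs between pairs, such as *Fcgr1*.

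Gene names came from GENCODE M21 (99.26% of IDs matched), and promoters from RefSeq. The members and lists were chosen with earlier results of these data known. Named list genes are the 2 with the smallest p and the most abundant of each list, of which 1 is not reported here. Profiles were compared over genes with a mean normalized count of at least 50, naming the 2 with the highest r for 6 receptors and chains. Nothing says that same-numbered mice shared a litter or a day. *Lilrb4a* was absent from the annotation. Protein sequences were not used here.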

Additional observations from a re-analysis of the deposited data

Results flagged for a closer look

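Of 20 groups of 4 libraries examined for a value far from the others, 1 was flagged. The normalized count of *Cd1d1* in the library labelled CD1d-KO replicate 1 was 60.6, while the other 3 CD1d-KO libraries had 0 to 1.15, and its gap to the nearest of them was 0.981 of the range of the group.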

How the results depend on the processing

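No gene of the 8 was called in the edgeR fit, and 1 was called with no filter on counts (*Fcgr1*, adjusted p = 0.00337 from edgeR with Benjamini-Hochberg adjustment), a fit that called 236 of 25377 genes in place of 5 of 13909. DESeq2 called 106 of 10398 genes and 0 of the 8, and fits without 1 replicate number called 3 to 20 genes. The 3 genes at an unadjusted p under 0.05 became 0 with no replicate block and 0 at an unadjusted p under 0.01, and leaving out libraries gave 0 to 3. With no replicate block the genes near *Cd1d1* at that threshold numbered 26 in place of 49, and leaving out libraries gave 19 to 49. Of the 8 genes 0 to 1 were lower and 2 to 4 higher in all remaining pairs when a pair was left out. Directions turned for *Fcgr2b* (-0.15 to 0.21 over fits that left out a pair or, with no replicate block, a single library), *Fcer1g* (-0.045 to 0.16), *Fcgrt* (-0.15 to 0.31) and *Fcrls* (-0.64 to 0.23, and 0.055 with limma on TPM), and the cause was not tested. *Fcgr1*, *Fcgr4* and *Syk* were positive and *Fcgr3* negative in all 20 alternatives.

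The counts of the lists under these settings were added after the data were seen. Among the genes of the set, counting error weighs most on *Fcrls* and *Fcgr4*, which had the lowest mean counts. Its part in their spread between mice was not computed.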
